A study of Homo sapiens with 6 samples.

Results

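The proteasome subunit genes are the genes whose name on the array is PSM followed by a letter from A to F and a number. They were taken by name and no measured value entered the rule, but the rule was set with earlier results of these data known. The array held 43 such genes with 64 probes, among 41000 probes in all. After the filter on spots that were not found, 41 of the 43 genes were measured by 61 probes, out of 27328 gene names and 36469 probes.

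The RH36 line was derived from an embryonal rhabdomyosarcoma, a tumor of skeletal muscle lineage, and does not carry the PAX3/FOXO1 translocation. It was transiently transfected with pre-miR-27a, a synthetic precursor of the microRNA miR-27a, or with a control precursor (pre-control), and 3 biological replicates of each were hybridised to Agilent arrays with 1 colour. The labels give 10 nM for both groups and 48 hours for the pre-miR-27a arrays, the study's methods state another concentration and time, and this was not settled. The study's methods name Lipofectamine as the transfection reagent and no further agent for either group, and the data describe 1 cell line.

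Of 8 muscle markers, 7 were measured and all 7 were well above background on all 6 arrays, among them MYOD1, DES and CHRNA1. MYF5 was not measured. Of markers of other cell types, 2 of 5 leukocyte (CD3E and CD14), 1 of 4 endothelial (TEK) and 2 of 5 epithelial genes (KRT8 and KRT18) were also well above background on all 6 arrays. PTPRC, LYZ, PECAM1, KDR, EPCAM and CDH1 were so on none of the arrays, and the others on some. Slide 1 carried the whole pre-control group and slide 2 the whole pre-miR-27a group, so an effect of the slide and one of the precursor cannot be told apart. The 8 spike-in RNAs that were well above background were all higher on slide 2, by 0.05 to 0.42 on the quantile normalized log2 scale, while with 75th percentile scaling 7 were higher and 1 was lower (−0.12 to 0.38). On slide 2, 3487 to 4153 of 43376 spots were not found, against 1559 to 1750 on slide 1.

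The proteasome degrades proteins tagged with ubiquitin. Its 20S core is a barrel of stacked rings, in which alpha subunits (PSMA) form the gated outer rings and beta subunits (PSMB) the inner rings that hold the proteolytic sites. The 19S regulatory particle caps the core: its ATPases (PSMC) unfold substrates and open the gate, and its non-ATPase subunits (PSMD) bind and deubiquitinate them. PSME proteins are alternative activators of the core and PSMF1 is an inhibitor. Subunit genes are commonly transcribed together.

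The transfected precursor gives a mature strand whose seed, bases 2 to 8, pairs with target messages. The 3p strand, which is the one called miR-27a in the study, and the 5p strand of the same hairpin are shown because they define the treatment. Both come from RefSeq on GRCh38.p14, the 3p strand at chr19:13836447-13836467 and the 5p strand at chr19:13836487-13836508 on the minus strand, with the seed in capitals.
hsa-miR-27a-3p: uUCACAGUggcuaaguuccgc
hsa-miR-27a-5p: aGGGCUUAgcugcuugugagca

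None of the 41 proteasome subunit genes was called different between pre-miR-27a and pre-control arrays in the comparison without pairing by replicate number. With that pairing, PSMB3 was called lower and PSMD2 higher, as described for these genes. A gene was given by its brightest probe and called at a Benjamini-Hochberg adjusted p under 0.05 in limma. The count was 0 of 41 genes and 0 of 61 probes, whereas 7.4% of all gene names were called, 3.07% higher and 4.33% lower. At an unadjusted p under 0.05, 3 subunit genes were higher and 5 were lower, and the shares over all gene names were 9.68% higher and 14.1% lower. SAM, run without pairing by replicate number, called 0 subunit genes at a false discovery rate of 1.9% and at 5%. It called 0.0256% and 2.33% of all gene names. The study's results name a paired SAM at 1.9%. A paired SAM was not run here, so the count at 1.9% does not repeat the study's test.

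The subunit genes were measured with more precision than most genes on the array. On each of the 6 arrays, all 61 probes had signals well above background, which held for the probes of 19867 of the 27328 gene names, and no spot was saturated. The median standard error of the log2 fold change was 0.09 over the subunit genes and 0.14 over all gene names. The 95% intervals of all 41 genes lay within a 2-fold change in either direction, and those of 39 lay within 1.5-fold. Over all gene names, 76% of intervals lay within 2-fold and 46% within 1.5-fold. The lowest bound was −0.77, for PSMB3, and the highest was 0.57, for PSMD2, both as log2 fold change.

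The log2 fold changes of the 41 genes ran from −0.49 to 0.36 with a median of 0.05, with 24 above 0 and 17 below. The median over all gene names was −0.04, with 11929 above 0 and 15399 below. With 75th percentile scaling of each array instead of quantile normalization, the subunit median was −0.10 and that of all gene names −0.12. In that setting 13 of the 41 genes changed sign, and their quantile normalized log2 fold changes were at most 0.153 in size. The direction of these small differences depended on the scaling.

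**Figure D1:**
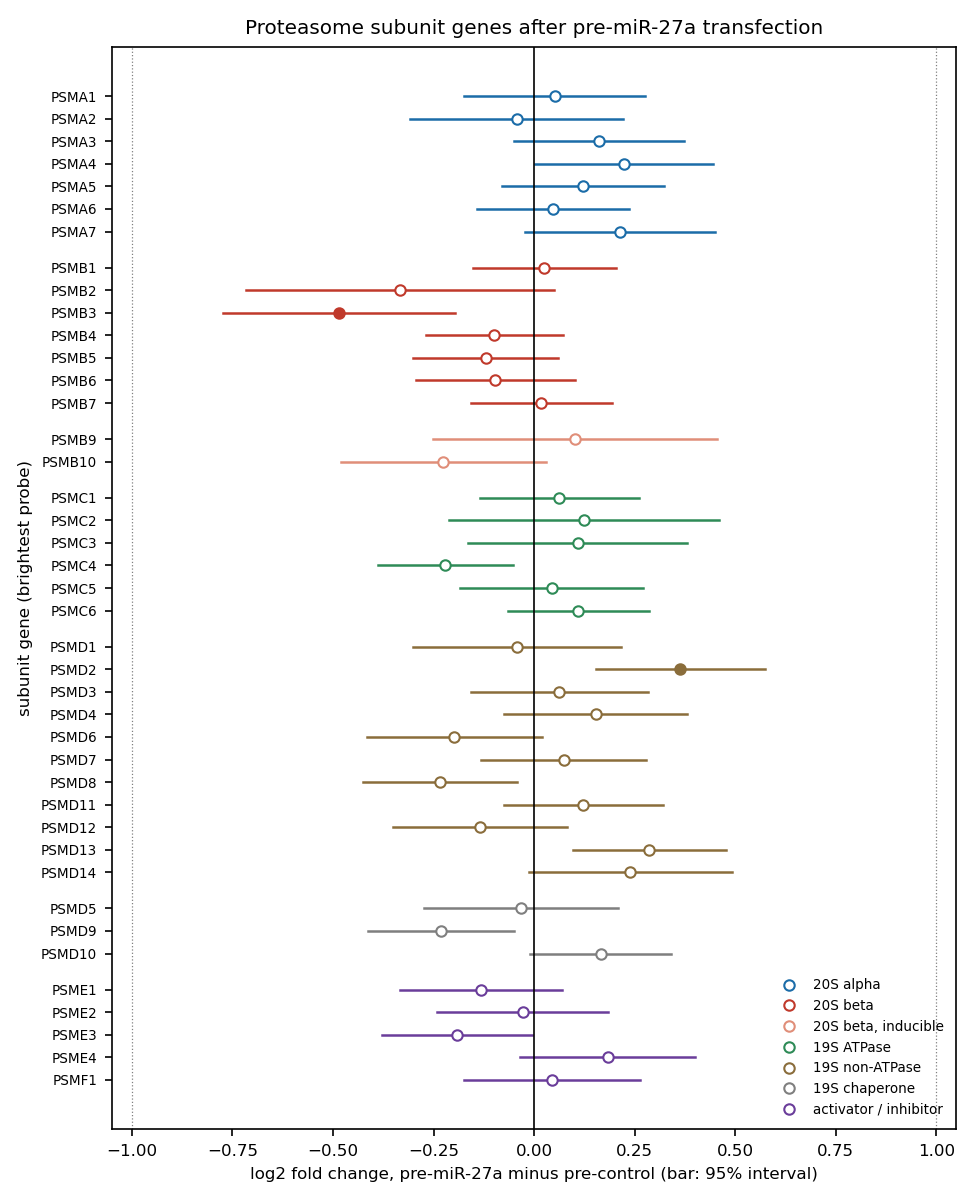
Log2 fold change (pre-miR-27a minus pre-control, horizontal axis) of the 41 measured proteasome subunit genes, 1 row per gene, colored by class. Points are the limma estimates from 3 arrays per group, bars are 95% intervals, dotted lines mark a 2-fold change, and filled points (PSMB3 and PSMD2) are the genes called when the replicate number was fitted as a block. All bars stay inside the dotted lines.

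PSMB3, a beta subunit without proteolytic activity, had the largest difference. Its log2 signals were 14.42, 14.69 and 14.39 on the pre-control arrays and 13.92, 14.13 and 14.00 on the pre-miR-27a arrays. The groups did not overlap, and each pre-miR-27a array was lower than the pre-control array of the same number. The log2 fold change was −0.49 ± 0.12 (SE, n = 3 per group), a level 0.714 times that of the pre-control, with a limma adjusted p of 0.0648. Pairing the arrays by number in a blocked limma model lowered its adjusted p to 0.0363. The PSMB3 probe lies at chr17:34165715-34170214 on hg18, plus strand, and was the only probe of this gene.

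PSMD2, a large scaffold subunit at the base of the 19S particle, lay at the other end. Its log2 signals were 13.51, 13.31 and 13.35 on the pre-control arrays and 13.80, 13.73 and 13.73 on the pre-miR-27a arrays. The pre-miR-27a arrays were all higher and lay closer together than the pre-control arrays. The log2 fold change was 0.36 ± 0.08 (SE, n = 3 per group), with a limma adjusted p of 0.0611 and of 0.0425 with the replicate block. With the block, PSMB3 was called lower and PSMD2 higher, so 1 of 41 genes was called in each direction, against 5.97% of all gene names higher and 8.1% lower. PSMD2 was also measured by 1 probe.

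Leaving out any 1 array gave PSMB3 adjusted p-values of 0.102 to 0.185 and PSMD2 of 0.0697 to 0.179 in limma. With 3 arrays against 3, an exact permutation test of a single gene cannot go below a two-sided p of 0.1.

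**Figure D2:**
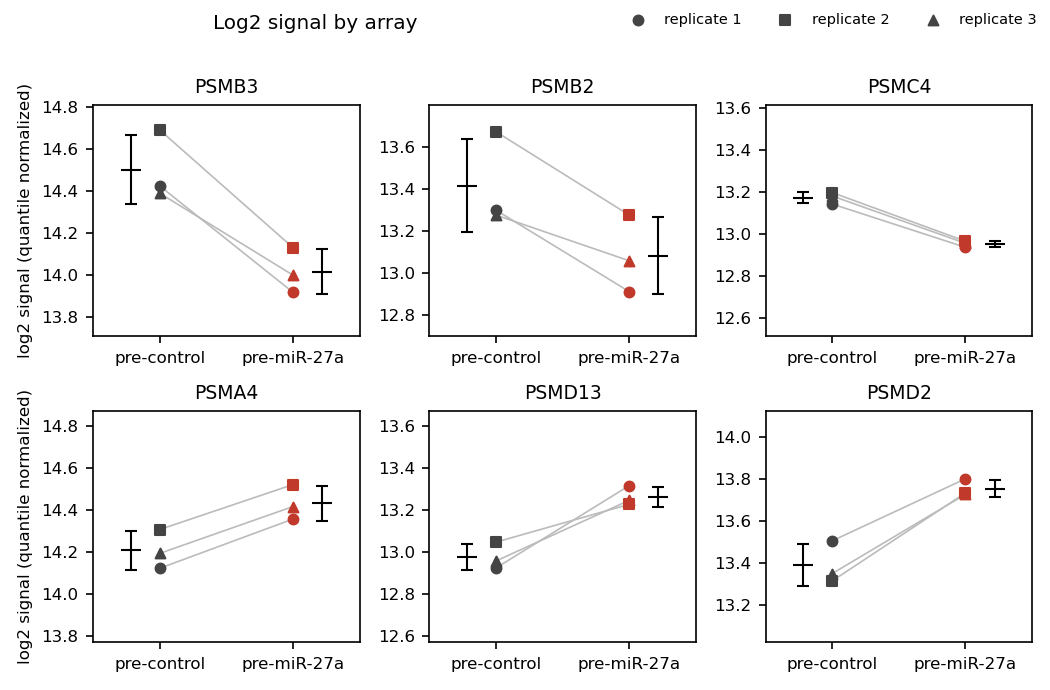
Quantile normalized log2 signal on each array (vertical axis, a range of equal width in each panel) for 6 proteasome subunit genes, with pre-control arrays in gray and pre-miR-27a arrays in red. Marker shapes give the replicate number, lines join arrays of the same number, and crossbars show the mean ± SD of 3 arrays. PSMB3, PSMB2 and PSMC4 were lower and PSMA4, PSMD13 and PSMD2 higher on every pre-miR-27a array than on the pre-control array of the same number.

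Of the alpha subunits, which form the outer rings and the gate, 6 of 7 measured genes had a log2 fold change above 0 and none was called. The class median was 0.12. PSMA4 had the largest difference: its log2 signals were 14.12, 14.31 and 14.19 on pre-control arrays and 14.36, 14.52 and 14.42 on pre-miR-27a arrays. The groups did not overlap, and the log2 fold change was 0.22 ± 0.09 (limma adjusted p = 0.199). PSMA7 and PSMA3 followed, at 0.21 and 0.16. PSMA2 was the gene below 0, at −0.04 with a limma adjusted p of 0.847. With 75th percentile scaling, 3 alpha genes were above 0 and 4 below. PSMA8, a testis-enriched alpha subunit, was well above background on none of the 6 arrays and was not measured.

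Of the 7 constitutive beta subunits, 5 had a log2 fold change below 0 and the class median was −0.10. None was called. With 75th percentile scaling all 7 were below 0. The proteolytic subunits had small differences. PSMB5, which carries the chymotrypsin-like activity and is the main target of bortezomib, had log2 signals of 15.52, 15.61 and 15.63 on pre-control arrays and 15.48, 15.44 and 15.48 on pre-miR-27a arrays. Its log2 fold change was −0.12 with a 95% interval of −0.30 to 0.06. PSMB6, with caspase-like activity, was at −0.10 (interval −0.29 to 0.10). PSMB7, with trypsin-like activity, was at 0.02 (interval −0.16 to 0.19), and a dimmer second probe gave −0.21.

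PSMB2, a structural beta subunit, was lower with both of its probes. The brighter probe read 13.30, 13.67 and 13.28 on pre-control arrays and 12.91, 13.28 and 13.06 on pre-miR-27a arrays. Replicate 2 was the highest array in both groups, and the highest pre-miR-27a array reached the lowest pre-control array. The log2 fold change was −0.33 ± 0.15 (limma adjusted p = 0.254). The other probe gave −0.44 ± 0.16, with a limma adjusted p of 0.153, and of 0.0348 with the replicate block.

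The difference between the alpha and beta classes was set out by array, a contrast that was not planned. It cancels a factor shared by all probes of an array, but not a slide effect that differs between probes. The mean log2 signal of the 7 alpha genes minus that of the 7 beta genes was −0.30, −0.31 and −0.28 on the pre-control arrays. It was −0.06, 0.00 and −0.04 on the pre-miR-27a arrays. The zero of this scale has no meaning, since different probes are compared, but its shift between groups does: 0.27 log2 units with quantile normalization, 0.27 with 75th percentile scaling and 0.28 with normexp background correction. Leaving PSMB2 and PSMB3 out of the beta mean, a choice made after seeing the data, lowered the shift to 0.17, and the groups still did not overlap. The shift is a description of these arrays with no test.

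**Figure D3:**
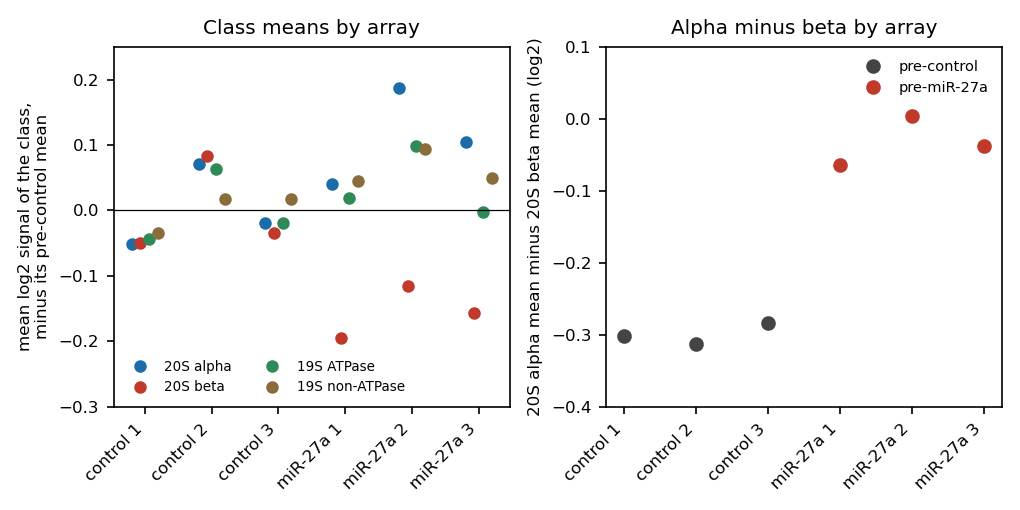
Left, mean log2 signal of the genes of 4 subunit classes on each of the 6 arrays, minus the mean of that class over the pre-control arrays. Right, mean of the 7 alpha genes minus mean of the 7 beta genes on each array (log2). The pre-control arrays lie between −0.31 and −0.28 and the pre-miR-27a arrays between −0.06 and 0.00.

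The interferon-inducible beta subunits replace the proteolytic ones in the immunoproteasome, which favors the peptides presented on MHC class I. PSMB8 was well above background on none of the 6 arrays and was not measured. PSMB9 read 10.28, 10.77 and 10.54 on pre-control arrays and 10.58, 10.73 and 10.58 on pre-miR-27a arrays. The groups overlapped, with a log2 fold change of 0.10 (limma adjusted p = 0.718). PSMB10 was at −0.23 (limma adjusted p = 0.246), with all pre-miR-27a arrays below all pre-control arrays. Of 17 measured genes of the interferon response, 1 was called, beside 7.4% of all gene names. This was IFI6, a mitochondrial protein induced by type I interferon, which was lower by a log2 fold change of −0.76 ± 0.10 (limma adjusted p = 0.0210). The other IFI6 probes were not called. A probe missing on pre-control array 1 was at −0.83 (limma adjusted p = 0.156), and its groups did not overlap. The dimmest probe was at 0.60 (limma adjusted p = 0.253). Its pre-control signals, 3.54, 4.43 and 3.57, lay below the lowest well above background signal of each of those arrays. In this list 6 genes were above 0 and 11 below, with a median of −0.17 beside −0.04 over all gene names. Of the 17 genes, 13 were well above background on all 6 arrays. IRF1 was among those above 0, at 0.16.

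Of the 6 ATPases of the 19S particle, 5 were above 0 and none was called, with a median of 0.09. With 75th percentile scaling, 1 was above 0 and 5 below. PSMC4 was the gene below 0, with log2 signals of 13.14, 13.20 and 13.18 on pre-control arrays and 12.94, 12.97 and 12.96 on pre-miR-27a arrays. Arrays of a group lay close together and the groups did not overlap. Its log2 fold change was −0.22 ± 0.07 (limma adjusted p = 0.116). PSMC2 had the largest positive value, 0.12 ± 0.14 (limma adjusted p = 0.633). The 4 probes of PSMC6 gave 0.11 to 0.20.

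Of the 11 measured non-ATPase subunits, 7 were above 0 and 4 below, with a median of 0.07, and with 75th percentile scaling 4 were above 0 and 7 below. After PSMD2, the largest positive value was that of PSMD13, a lid subunit. It read 12.92, 13.05 and 12.96 on pre-control arrays and 13.32, 13.23 and 13.25 on pre-miR-27a arrays, without overlap. Its log2 fold change was 0.29 ± 0.08 (limma adjusted p = 0.0832). PSMD14, the deubiquitinase of the lid, was at 0.24 ± 0.10 (limma adjusted p = 0.222). PSMD4, a ubiquitin receptor, was at 0.15 and its other probe at 0.00. PSMD8 had the lowest value, −0.23 ± 0.08 (limma adjusted p = 0.136), followed by PSMD6 at −0.20.

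PSMD5, PSMD9 and PSMD10 carry subunit names but act as chaperones in the assembly of the 19S base. PSMD9 was at −0.23 ± 0.07 (limma adjusted p = 0.123) and PSMD10, also known as gankyrin, at 0.17 ± 0.07 (limma adjusted p = 0.224), and neither had overlapping groups. PSMD5 was at −0.03. A second PSMD9 probe was found on 4 arrays and left out by the filter, and without the filter it was at 0.00.

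The activators were not called either. PSME1 and PSME2, which together form the 11S activator induced by interferon gamma, were at −0.13 (interval −0.33 to 0.07) and −0.03 (interval −0.24 to 0.18). PSME3, the nuclear activator, read 12.12, 12.02 and 11.99 on pre-control arrays and 11.87, 11.86 and 11.83 on pre-miR-27a arrays. Its log2 fold change was −0.19 ± 0.07 (limma adjusted p = 0.190), and its other probes gave −0.15 and −0.02. PSME4 was at 0.18 (limma adjusted p = 0.268). The inhibitor PSMF1 was at 0.05, and its other probe at −0.19.

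Groups did not overlap for 20 of the 41 genes. In 11 of these the pre-miR-27a arrays were higher and in 9 lower. Over all gene names, 12.6% had non-overlapping groups with higher and 18.9% with lower pre-miR-27a signals. Of the 15 genes with several measured probes, 8 had probes of opposite sign: PSMB1, PSMB7, PSMC1, PSMD1, PSMD3, PSMD4, PSMD12 and PSMF1. The widest such gap was that of PSMD1, at −0.04 with the brighter and 0.27 with the dimmer probe.

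Over 4 lists of genes that act with the subunits, 4 of 40 measured genes were called, or 10%, beside 7.4% of all gene names. Of 9 measured assembly factors and proteasome proteins without a PSMA to PSMF name, 1 was called lower and 1 higher. ADRM1, the ubiquitin receptor Rpn13 of the 19S particle, read 14.02, 14.09 and 14.00 on pre-control arrays and 13.56, 13.55 and 13.47 on pre-miR-27a arrays. Its log2 fold change was −0.51 ± 0.07 (limma adjusted p = 0.0234). The second ADRM1 probe gave −0.59 ± 0.08 (limma adjusted p = 0.0214), so both probes of this receptor fell.

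ECPAS, named KIAA0368 in the files, is a scaffold that tethers proteasomes to other cell compartments. It read 11.73, 11.63 and 11.98 on pre-control arrays and 12.37, 12.29 and 12.33 on pre-miR-27a arrays, a log2 fold change of 0.55 ± 0.11 (limma adjusted p = 0.0439). Its second, dimmer probe was at 0.01 (limma adjusted p = 0.934), so the ECPAS call rested on 1 of its probes. POMP and PSMG1, which assemble the core, were at −0.04 and 0.11, and PSMG3 was at −0.42 (limma adjusted p = 0.0707).

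Among 15 proteasome-bound and shuttle factors, 0 were called by limma, 11 were above 0 and 4 below. USP14, a deubiquitinase that docks on the 19S particle, had the largest value, 0.37 ± 0.08 (limma adjusted p = 0.0525), and was called higher with the replicate block (adjusted p = 0.0443). Of the 6 ubiquitin genes and ubiquitin-activating enzymes, UBA6 (UBE1L2 in the files), an alternative activating enzyme, rose. It read 7.06, 7.22 and 7.05 on pre-control arrays and 7.73, 7.84 and 7.75 on pre-miR-27a arrays, a log2 fold change of 0.66 ± 0.09 (limma adjusted p = 0.0198). Its second probe was at 0.48 ± 0.22 (limma adjusted p = 0.241, and 0.0336 with the replicate block). The main activating enzyme UBA1 was at −0.08, and the ubiquitin gene UBB was at 0.07.

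**Figure D4:**
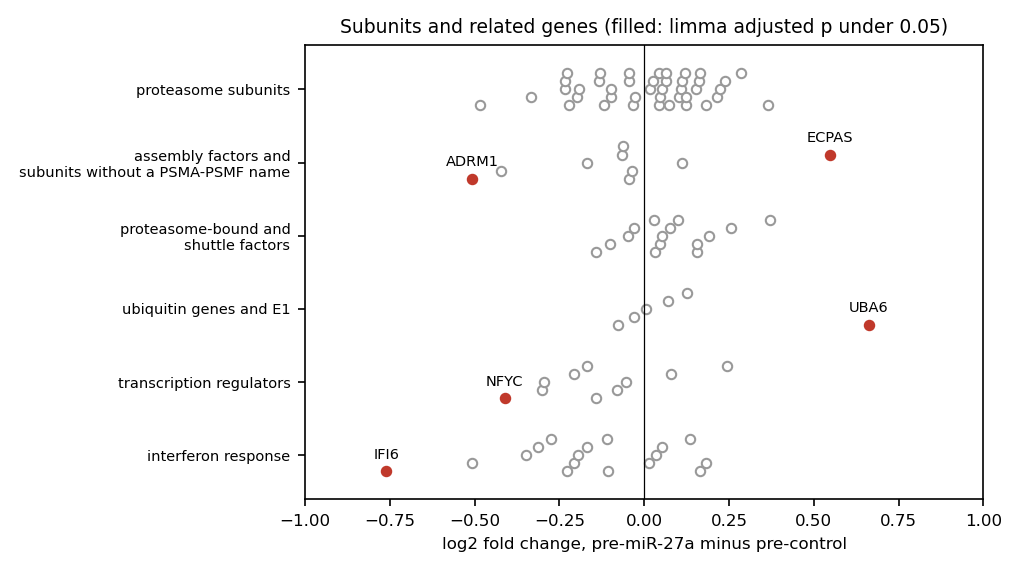
Log2 fold change (pre-miR-27a minus pre-control, horizontal axis) of the 41 proteasome subunit genes and of the measured genes of 5 related lists, by brightest probe, with 1 point per gene and no meaning to the height within a list. Filled red points passed a limma adjusted p of 0.05: ADRM1, NFYC and IFI6 lower and ECPAS and UBA6 higher.

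Transcription of subunit genes is driven by NFE2L1, which binds antioxidant-type elements when proteasome activity is short, and by NF-Y, a trimer that binds the CCAAT box. Of 10 regulators in this list, 8 were below 0 and 1 was called. NFYC, a subunit of NF-Y, fell from log2 signals of 11.93, 12.05 and 12.11 to 11.54, 11.65 and 11.66, a log2 fold change of −0.41 ± 0.09 (limma adjusted p = 0.0467). Its second measured probe was at −0.19 (limma adjusted p = 0.315). NFYA and NFYB were at −0.29 and −0.08. NFE2L1 was at −0.30 ± 0.14 (limma adjusted p = 0.250) and NFE2L2 at 0.25 (limma adjusted p = 0.216).

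Promoters of the subunit genes were searched for the letters CCAAT and TGACNNNGC on both strands, in RefSeq windows of 300 bases around the gene start on GRCh38.p14. Windows of a chromosome that holds no subunit gene were left out. Of the 38 members with a window, 18 held CCAAT, or 47.4%, against 39.7% of the 27305 genes searched. TGACNNNGC was found in 13, or 34.2%, against 16.1% of the genes searched. The median log2 fold change was 0.07 for measured genes with CCAAT and 0.01 for those without, and −0.03 with TGACNNNGC and 0.06 without. PSMB3 held both, and stretches of its promoter are shown because it had the largest difference of the list, beside PSMA4, the alpha gene with the largest difference, which also held both. All lie on the plus strand, the PSMB3 stretches at chr17:38752627-38752656 and chr17:38752674-38752703 and that of PSMA4 at chr15:78540650-78540679, with the matched letters in capitals.
PSMB3 TGACNNNGC: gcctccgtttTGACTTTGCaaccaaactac
PSMB3 CCAAT: agggacgtgtgaCCAATagaaagcccagat
PSMA4 TGACNNNGC: gtgggcacgaTGACTCTGCaccgcctcctc

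The matched genes thus included PSMB3 at −0.49 and PSMA4 at 0.22, and a match is a description of the letters and not of a bound site.

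Among the muscle markers, all 7 measured genes were below 0 and 0 were called by limma, with values from −0.95 for MYOG to −0.01 for DES. With the replicate block, MYOD1, MYOG and CDH15 were called lower, where the limma adjusted p went from 0.0787, 0.140 and 0.0561 to 0.0363, 0.0334 and 0.0457. Over all gene names, 15399 of 27328 were below 0 and 8.1% were called lower with the block. Of the markers of other cell types, CD14, CD3E and KRT8 were called lower, at −0.71, −0.44 and −0.70, and KRT18 higher, at 0.51. The second CD3E probe was at −0.05 and was not called. The second KRT8 probe was at 0.75 and was not called. Its log2 signals, 2.08 to 3.51, lay below the lowest well above background signal of each array. Further KRT18 probes were at 0.78 and 0.63, both called higher, and a dim one at 0.21 was not called. The part of these markers in the values of the subunit genes was not tested, and fewer messages per cell and fewer cells of a type cannot be told apart in these samples.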

How the data were processed

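Expression was measured in RH36 cells on 3 pre-control and 3 pre-miR-27a arrays. The authors deposited, for each spot, the processed intensity of Agilent Feature Extraction 10.5.1.1, background-subtracted and not normalized between arrays, with mean and background intensity and quality flags. They also deposited normalized log2 values, which served as an alternative (median difference from the values here 0.0043). No column of per-sample values was left unused (0).

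Control spots were removed, log2 processed intensity was quantile normalized, spots not found by the software became missing, replicate spots were averaged, and probes missing on more than 1 array were removed. Groups were compared with limma 3.58.1 (R 4.3.3, with the data.table package, version 1.17.8), with Benjamini-Hochberg adjustment over all probes and a threshold of 0.05. Values are mean differences ± SE. Precision is limited by how many arrays there are. Of these steps, only the limma comparison without the block was tested on simulated data.

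The labels number the replicates, and same-numbered arrays deviated together (correlations of 0.40, 0.46 and 0.41 over 31717 probes). Different numbers gave −0.27 to −0.12, where values below 0 follow in part from taking deviations within each group. Over the 61 subunit probes, same-numbered arrays gave 0.67, 0.65 and 0.47 and different numbers −0.60 to 0.02. The numbers are also the slide positions, so a pairing by replicate and one by position cannot be told apart. The main comparison ignores the numbers and the block on the number is an alternative. For the genes named, a value fitted with this block is printed where a call changed. Alternatives were 75th percentile scaling, normexp (offset 50), other flag filters, the block and the deposited values. Variance trend with robust estimation, SAM without pairing, other probes and leaving out each array were further alternatives.

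Named were every called member, the largest rise and fall of each class, PSMB5 to PSMB10, the activators and the inhibitor, probes of opposite sign, and called genes of the other lists. Further named genes were chosen after their values were seen. The members and lists were chosen with earlier results of these data known. Gene names and hg18 positions are those of the files, and 60 of 64 member probes matched the same symbol in RefSeq by accession. Positions within exons were not analysed here.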

Additional observations from a re-analysis of the deposited data

How the results depend on the processing

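The count of subunit genes called higher was 0 and became 1 with the filter on signals well above background, 1 with the replicate block and 2 with variance trend and robust estimation. Beside these, 4.88%, 5.97% and 3.64% of all gene names were called higher. The count called lower was 0 and became 1 with normexp, with the well above background filter, with the block and with variance trend, beside 5.22%, 7.24%, 8.1% and 5.13% of all gene names. These were PSMB3 lower, PSMD2 higher and, with variance trend, PSMD13 higher. The other alternatives, leaving out each array and SAM included, gave 0 in both directions. Their median log2 fold change was 0.05, moved to −0.10 with 75th percentile scaling, and ranged from 0.02 to 0.06 without single arrays. No called subunit gene changed direction.

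Over the whole array 2856 probes were called, 1440 higher and 1416 lower. The count was 5421 with the block, 9 with SAM at 1.9% (9 higher, 0 lower) and 1058 with SAM at 5% (922 higher, 136 lower), and the split was 1275 higher and 1981 lower with 75th percentile scaling. Without pre-control replicate 1 it was 1276, without pre-control replicate 3 it was 81, and without any other single array it was 0, where an unadjusted p under 0.05 was reached by 7178 to 7686 probes. ADRM1, ECPAS, UBA6 and IFI6 kept their calls in all 8 limma alternatives with all arrays, NFYC in 7 and the marker CD3E in 6. SAM called none of them at 1.9%, and at 5% UBA6 only. Leaving out 1 array ended the calls of ADRM1, ECPAS, UBA6 and NFYC in every case and that of IFI6 in 5 of 6, and those of CD14, CD3E and KRT18 in every case. The cause was not tested. PSMA8 and PSMB8 were too dim for a fold change.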
